A study of Mus musculus with 9 samples.

Results

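Chemokines are small secreted proteins that steer migrating cells, and the genes that encode them and their receptors were examined in mouse skin. The family was chosen by name. It holds every gene whose symbol starts with Ccl, Cxcl, Ccr or Cxcr followed by a digit, together with Cx3cl1, Cx3cr1, Xcl1, Xcr1 and Ackr1 to Ackr4. These are 63 of the 49585 genes in each library's table. The series holds 9 libraries of total RNA from untreated mouse skin, 3 per group. The first group carries the label IL-6 -/- KO on the C57BL/6 strain, and its libraries are called KO-labelled here. The second is wild-type BALB/c and the third is wild-type C57BL/6, which the study used as its control. The mice, from Jackson Laboratory, arrived at an age of 4 to 5 weeks, settled for 2 weeks and were 6 weeks old at the start. Shaving took place on day 0, the following 7 days passed without treatment, and skin was taken on day 8. The protocol counts 6 IL-6KO mice for 3 libraries. No label links a library with a mouse or says whether RNA was pooled, so each p-value reflects only how far these libraries vary, and that variation may be technical in part.

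Chemokine ligands bind to glycosaminoglycans on cell surfaces and signal through G protein-coupled receptors on leukocytes and other cells. Homeostatic chemokines guide steady traffic, such as the movement of dendritic cells into lymphatic vessels and the homing of T cells to skin, while inflammatory chemokines are induced by cytokines and draw in neutrophils and monocytes. Atypical receptors bind chemokines without the usual G protein signal and carry them across, or remove them from, the tissue.

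The libraries held 3843953 to 6882193 exon reads, and the family took 0.0646% to 0.135% of them. Skin markers were present in all groups, with summed suprabasal keratinocyte markers at 3967 to 19568 CPM (counts scaled to a fixed library size after correction for library composition) in KO-labelled libraries, 17380 to 19722 CPM in BALB/c libraries and 10274 to 16996 CPM in C57BL/6 libraries. Il6, the gene named in the genotype label, had 6, 24 and 1 exon reads in KO-labelled libraries, 0, 2 and 0 in BALB/c libraries and 2, 1 and 0 in C57BL/6 libraries. Reads were thus most frequent in the libraries whose label says that the gene is missing. The labels do not say which part of the gene was disrupted, so these reads do not settle the genotype, and the group is called KO-labelled throughout. Hair follicle matrix and inner root sheath markers summed to 14627 to 55966 CPM in KO-labelled libraries, 7.98 to 21.7 CPM in BALB/c libraries and 9.10 to 625 CPM in C57BL/6 libraries. Skeletal muscle markers summed to 6647 to 7909 CPM in KO-labelled libraries, 23247 to 47895 CPM in BALB/c libraries and 47395 to 88454 CPM in C57BL/6 libraries. In the comparisons of KO-labelled libraries with either wild-type strain, all 8 hair follicle markers were called higher and all 7 muscle markers were called lower. Over all tested genes 19.2% were called higher and 16% lower against C57BL/6, and 19.9% higher and 17.4% lower against BALB/c. The part of these tissue differences in the chemokine results was not tested. BALB/c replicate 2 also stood apart, with 130 Xist reads against at most 5 in any other library, while the Y-linked Eif2s3y had 257 to 427 reads in all 9 libraries. In bulk tissue, fewer cells of a type and less RNA per cell cannot be told apart.

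Of the 63 family genes, 58 had at least 1 exon read and 34 had enough reads to be tested. The 5 genes with no read in any library were Ccl19-ps3, Ccl21b, Ccl26, Cxcl15 and Cxcr1. A count of 0 reads allows up to 3 reads over the libraries summed, here all 9, as counting error only. The other 24 untested genes had 2 to 93 reads over all 9 libraries together. They include receptors of lymphocytes and dendritic cells, with Ccr7 at 26 reads, Ccr10 at 50, Cxcr3 at 65, Ccr6 at 4 and Cxcr5 at 3. Levels between genes are compared per length of exon, as CPM per kilobase. Ccl8, a ligand that attracts monocytes and other leukocytes, was the most abundant member per length in every group, at 186 ± 128 CPM per kilobase in KO-labelled libraries, 154 ± 87.6 in BALB/c libraries and 101 ± 52.8 in C57BL/6 libraries (SD, n = 3 each). Cxcl14, a ligand made by epithelial and stromal cells, ranked 2 in KO-labelled libraries at 102 ± 29.8 CPM per kilobase, 5 in BALB/c libraries at 27.5 ± 4.45 and 2 in C57BL/6 libraries at 47.1 ± 12.8. Ccl6, a ligand of myeloid cells, ranked 3 in KO-labelled libraries at 52.8 ± 33.0 CPM per kilobase, 2 in BALB/c libraries at 68.0 ± 23.3 and 4 in C57BL/6 libraries at 36.7 ± 11.9. Ccl21a ranked 5 in KO-labelled libraries at 20.6 ± 8.17 CPM per kilobase, 11 in BALB/c libraries at 8.47 ± 4.80 and 3 in C57BL/6 libraries at 45.8 ± 10.6. In KO-labelled libraries and in BALB/c libraries the level of the next gene lay within 1 SD of Ccl8, so the spread between libraries does not separate the leading genes there. Ccl8 did not lead in every C57BL/6 library, as Ccl21a exceeded it in replicate 2, at 57.8 against 47.6 CPM per kilobase.

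Each pair of groups was compared with edgeR's quasi-likelihood test over all 14415 genes that passed the filter on low counts, and a gene is said to be called where its Benjamini-Hochberg adjusted p was under 0.05. KO-labelled libraries differed from C57BL/6 in 10 of 34 tested members, with Cxcr2, Cxcl2, Cxcl14 and Cxcr4 higher and Ccl27a, Ackr4, Ackr1, Ccl24, Ccr4 and Ccl19 lower. Over all tested genes 35.2% were called in that comparison (19.2% higher and 16% lower). BALB/c differed from C57BL/6 in 5 of 34 members, with Ccl24 higher and Ccl19, Ccl21a, Ccl27a and Cxcl12 lower, where 3.41% of all tested genes were called. KO-labelled libraries differed from BALB/c in 8 of 34 members, with Cxcl14, Cxcl12, Cxcr4, Ccl19 and Cx3cl1 higher and Ccl24, Ackr2 and Ackr3 lower, where 37.3% of all tested genes were called. Over all tested genes 1.63% were called higher and 1.78% lower in BALB/c against C57BL/6, and 19.9% higher and 17.4% lower in KO-labelled libraries against BALB/c. DESeq2 called 11 members in KO-labelled libraries against C57BL/6 (37.6% of all tested genes), 7 in BALB/c against C57BL/6 (7.17%) and 11 in KO-labelled libraries against BALB/c (39.5%). The family's share was near or below the background wherever KO-labelled libraries were compared. A gene can enter the tested set through 1 group alone, so these counts describe the 34 genes that passed and not the whole family.

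The median log2 fold change of the tested members was 0.14 in KO-labelled libraries against C57BL/6, where the median of all tested genes was 0.01. It was 0.04 against -0.01 for all tested genes in BALB/c against C57BL/6, and 0.35 against 0.01 in KO-labelled libraries against BALB/c. The library ranges of the groups did not overlap for 12 members in KO-labelled libraries against C57BL/6 (47.5% of all tested genes), for 15 members in BALB/c against C57BL/6 (30.2%) and for 12 members in KO-labelled libraries against BALB/c (50.7%). The comparisons share libraries, so their calls are not independent of each other. Scaling by library size alone shifted the median of all tested genes to 0.15 on the log2 scale in KO-labelled libraries against C57BL/6.

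**Figure D1:**
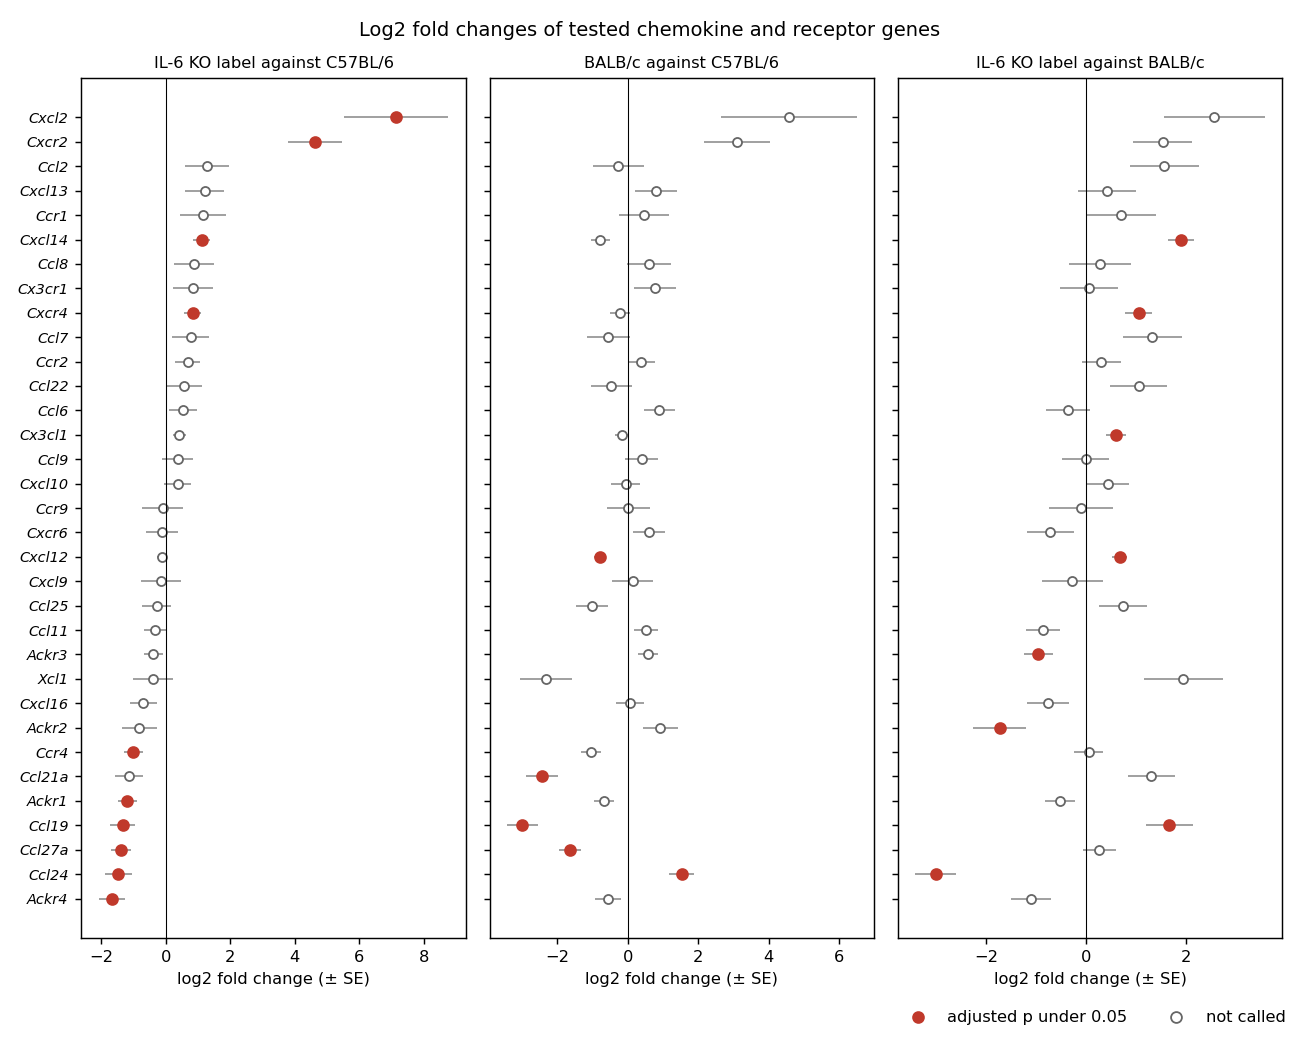
Log2 fold changes with SE of tested family genes in the 3 comparisons, with the first-named group over the second. Filled points passed an adjusted p of 0.05, and Cxcl2 and Cxcr2 lie farthest to the right in the comparison of KO-labelled libraries with C57BL/6.

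Among the homeostatic lymphoid members, Ccl19 and Ccl21a were both lower in BALB/c skin than in C57BL/6 skin. These ligands of Ccr7 lead dendritic cells and T cells into lymphatic vessels and lymph nodes. Ccl19 (chr4:42754525-42756577, reverse strand, GRCm38) had 1.59, 3.46 and 3.18 CPM in KO-labelled libraries, 1.11, 0.998 and 0.487 CPM in BALB/c libraries, against 6.00, 9.69 and 5.38 CPM in C57BL/6 libraries. Every BALB/c library lay below every library of the other groups, and KO-labelled libraries lay between. Ccl19 was lower in BALB/c than in C57BL/6 (log2 fold change -2.99 ± 0.43 SE, adjusted p = 0.00713), and this call held in all 17 alternative settings. It was lower in KO-labelled libraries than in C57BL/6 (log2 fold change -1.33 ± 0.39 SE, adjusted p = 0.0257) and higher in them than in BALB/c (log2 fold change 1.66 ± 0.47 SE, adjusted p = 0.0216). The call against C57BL/6 was lost without KO-labelled replicate 1 (adjusted p = 0.0841), KO-labelled replicate 3 (0.064) or C57BL/6 replicate 2 (0.0899), with unique exon reads (0.0586) and with scaling by library size alone (0.0515). The call against BALB/c was lost without KO-labelled replicate 3 (0.0727), BALB/c replicate 2 (0.054) or BALB/c replicate 3 (0.0757). With the filter and the fit on only KO-labelled and BALB/c libraries, Ccl19 had too few reads to be tested.

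Ccl21a (chr4:42772860-42773993, reverse strand) had 9.78, 21.4 and 22.7 CPM in KO-labelled libraries, 2.55, 9.98 and 9.57 CPM in BALB/c libraries, against 32.6, 50.3 and 36.8 CPM in C57BL/6 libraries. The BALB/c and C57BL/6 libraries did not overlap, and BALB/c replicate 1 was lowest of all. Ccl21a was lower in BALB/c than in C57BL/6 (log2 fold change -2.44 ± 0.46 SE, adjusted p = 0.0226). This call was lost without BALB/c replicate 2 (0.0656), BALB/c replicate 3 (0.0701) or C57BL/6 replicate 1 (0.0546), 2 (0.0679) or 3 (0.066), while the log2 fold change stayed between -2.70 and -2.23. KO-labelled libraries lay below C57BL/6 without passing the threshold (log2 fold change -1.14 ± 0.43 SE, adjusted p = 0.0665). Their difference from BALB/c did not pass with total exon reads (log2 fold change 1.30 ± 0.47 SE, adjusted p = 0.0526) and passed with unique exon reads (log2 fold change 2.11, adjusted p = 0.00373). Ccr7, the receptor of both ligands, had 2, 4 and 3 exon reads in KO-labelled libraries, 4, 1 and 5 in BALB/c libraries and 3, 3 and 1 in C57BL/6 libraries, too few to be tested. Lymphatic endothelial markers, 6 genes all detected, summed to 46.5 to 90.4 CPM in KO-labelled libraries, 58.6 to 100.1 CPM in BALB/c libraries and 83.5 to 110 CPM in C57BL/6 libraries. None of them was called in BALB/c against C57BL/6, but their median log2 fold change was -1.02, where that of all tested genes was -0.01, and 3 of the 6 had groups that did not overlap (30.2% of all tested genes). Reads were fewer in BALB/c for Reln (171 against 323 in C57BL/6), Flt4 (55 against 149), Mmrn1 (60 against 160), Prox1 (31 against 69) and Pdpn (457 against 522) and more for Lyve1 (653 against 552). The part of lymphatic vessels in the Ccl19 and Ccl21a results was not tested.

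Ccl19, Ccl21a and Ccl27a lie on chromosome 4 among near-identical copies, so reads can be shared between them. Only 51.3% of Ccl19 reads, 37.9% of Ccl21a reads and 68.3% of Ccl27a reads were counted by the authors as unique to the gene. The following pairs of coding sequence show how little separates the genes from their copies, written 5′ to 3′ from the GENCODE transcripts of GRCm38, with the differing bases in capitals. Positions count from 1 at the first base of the coding sequence. Gm21541 ranges over chr4:41903610-41904743 and differs from Ccl21a by 2 of 402 bases, T84A and C194T (the base of Ccl21a first). Gm13306 ranges over chr4:42153436-42158839 and differs from Ccl27a by 3 of 408 bases, C222T, G342A and A388C (the base of Ccl27a first).
Ccl21a, bases 60 to 108: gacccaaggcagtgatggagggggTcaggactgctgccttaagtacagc
Gm21541, bases 60 to 108: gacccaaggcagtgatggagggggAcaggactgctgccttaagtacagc
Ccl27a, bases 340 to 388: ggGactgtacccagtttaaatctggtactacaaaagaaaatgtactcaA
Gm13306, bases 340 to 388: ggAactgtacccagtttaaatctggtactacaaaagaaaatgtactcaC

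Gm21541 and Gm2564 showed the same order of groups as Ccl21a in their summed reads. Gm21541 had 0, 40 and 37 exon reads in KO-labelled libraries, 0, 0 and 0 in BALB/c libraries and 112, 140 and 62 in C57BL/6 libraries. Gm2564, a copy of Ccl19 with 98.9% identity over 707 aligned bases, had 15, 35 and 9 reads in KO-labelled libraries, 0, 0 and 6 in BALB/c libraries and 45, 48 and 27 in C57BL/6 libraries. Both were nearly without reads in BALB/c skin. Gm13306, a copy of Ccl27a, had 205, 366 and 194 reads in C57BL/6 libraries. In KO-labelled libraries it had 41, 87 and 27 reads, and in BALB/c libraries 25, 65 and 98. Gm13304 and Gm20878 had few reads and another order. Gm13304, a copy of Ccl21a, had 15, 0 and 0 reads in KO-labelled libraries, 0, 1 and 0 in BALB/c libraries and 0, 0 and 0 in C57BL/6 libraries. Gm20878, a copy of Ccl27a, had 2, 5 and 2 reads in KO-labelled libraries, 4, 2 and 6 in BALB/c libraries and 4, 0 and 2 in C57BL/6 libraries.

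When each gene was summed with its copies, so that a read shared within the set counts the same wherever it was placed, the BALB/c libraries stayed below the C57BL/6 libraries with no overlap. The Ccl19 set summed to 1.30 ± 0.280 CPM in BALB/c and 13.6 ± 3.33 CPM in C57BL/6 (SD, n = 3 each), a 10.4-fold difference. The Ccl21a set summed to 7.42 ± 4.23 CPM in BALB/c and 56.4 ± 12.8 CPM in C57BL/6, a 7.60-fold difference. KO-labelled libraries summed to 7.30 ± 3.22 CPM for the Ccl19 set, overlapping C57BL/6, and to 24.6 ± 9.42 CPM for the Ccl21a set, below C57BL/6 with no overlap. With the copies summed, the log2 ratio of KO-labelled libraries over C57BL/6 was -0.89 for the Ccl19 set, -1.20 for the Ccl21a set and -1.56 for the Ccl27a set. GRCm38 was assembled from C57BL/6J mice, and the number of these copies in BALB/c was not measured here.

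**Figure D2:**
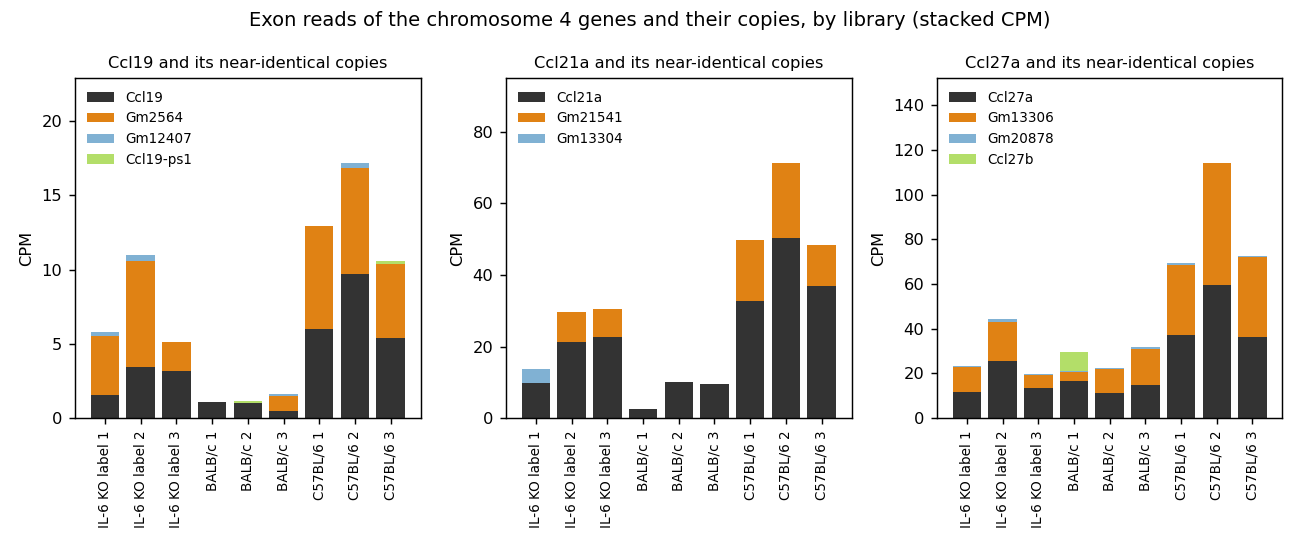
Stacked CPM of Ccl19, Ccl21a and Ccl27a (dark) with their near-identical copies in each of the 9 libraries, from KO-labelled libraries on the left to C57BL/6 on the right. The summed columns of the 3 BALB/c libraries lie below those of every C57BL/6 library in each panel.

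Cxcl12, the stromal ligand of Cxcr4, was lower in BALB/c than in the other groups. Cxcl12 (chr6:117168535-117181367, forward strand) had 150.2, 183 and 177 CPM in KO-labelled libraries, 124, 105 and 93.1 CPM in BALB/c libraries, against 197, 199 and 161 CPM in C57BL/6 libraries. All BALB/c libraries lay below all others, and KO-labelled libraries overlapped C57BL/6. BALB/c was lower than C57BL/6 (log2 fold change -0.79 ± 0.15 SE, adjusted p = 0.0278), and KO-labelled libraries were higher than BALB/c (log2 fold change 0.67 ± 0.15 SE, adjusted p = 0.00949) in every alternative setting except a required log2 fold change of 1. The call of BALB/c against C57BL/6 was lost without KO-labelled replicate 3 (adjusted p = 0.0546), BALB/c replicate 2 (0.119), BALB/c replicate 3 (0.13), C57BL/6 replicate 1 (0.0998) or C57BL/6 replicate 2 (0.0808), and with scaling by library size alone (0.0805).

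Cxcr4, the receptor that Cxcl12 signals through, was higher in KO-labelled libraries. It had 9.26, 7.13 and 8.70 CPM in KO-labelled libraries, 3.66, 2.99 and 5.35 CPM in BALB/c libraries, against 4.61, 5.22 and 4.09 CPM in C57BL/6 libraries. KO-labelled libraries lay above all others, while BALB/c and C57BL/6 overlapped. The difference passed against C57BL/6 (log2 fold change 0.84 ± 0.27 SE, adjusted p = 0.0369) and against BALB/c (log2 fold change 1.05 ± 0.27 SE, adjusted p = 0.015). The first of these calls was lost in 8 of 17 alternative settings, among them every omission of a library except KO-labelled replicate 2 and BALB/c replicates 2 and 3 (adjusted p = 0.0506 to 0.122). The call against BALB/c was lost without KO-labelled replicate 1 (0.0518), KO-labelled replicate 3 (0.0553), BALB/c replicate 1 (0.0522) or BALB/c replicate 2 (0.0651).

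Cxcl13, which draws B cells into follicles through Cxcr5, had 5.29, 23.4 and 4.03 CPM in KO-labelled libraries, 5.25, 9.15 and 10.5 CPM in BALB/c libraries, against 4.61, 5.52 and 4.09 CPM in C57BL/6 libraries. KO-labelled replicate 2 was the highest by a wide margin and the other libraries overlapped. No comparison of Cxcl13 passed (adjusted p = 0.147, 0.504 and 0.608), and Cxcr5 had 3 reads in all.

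**Figure D3:**
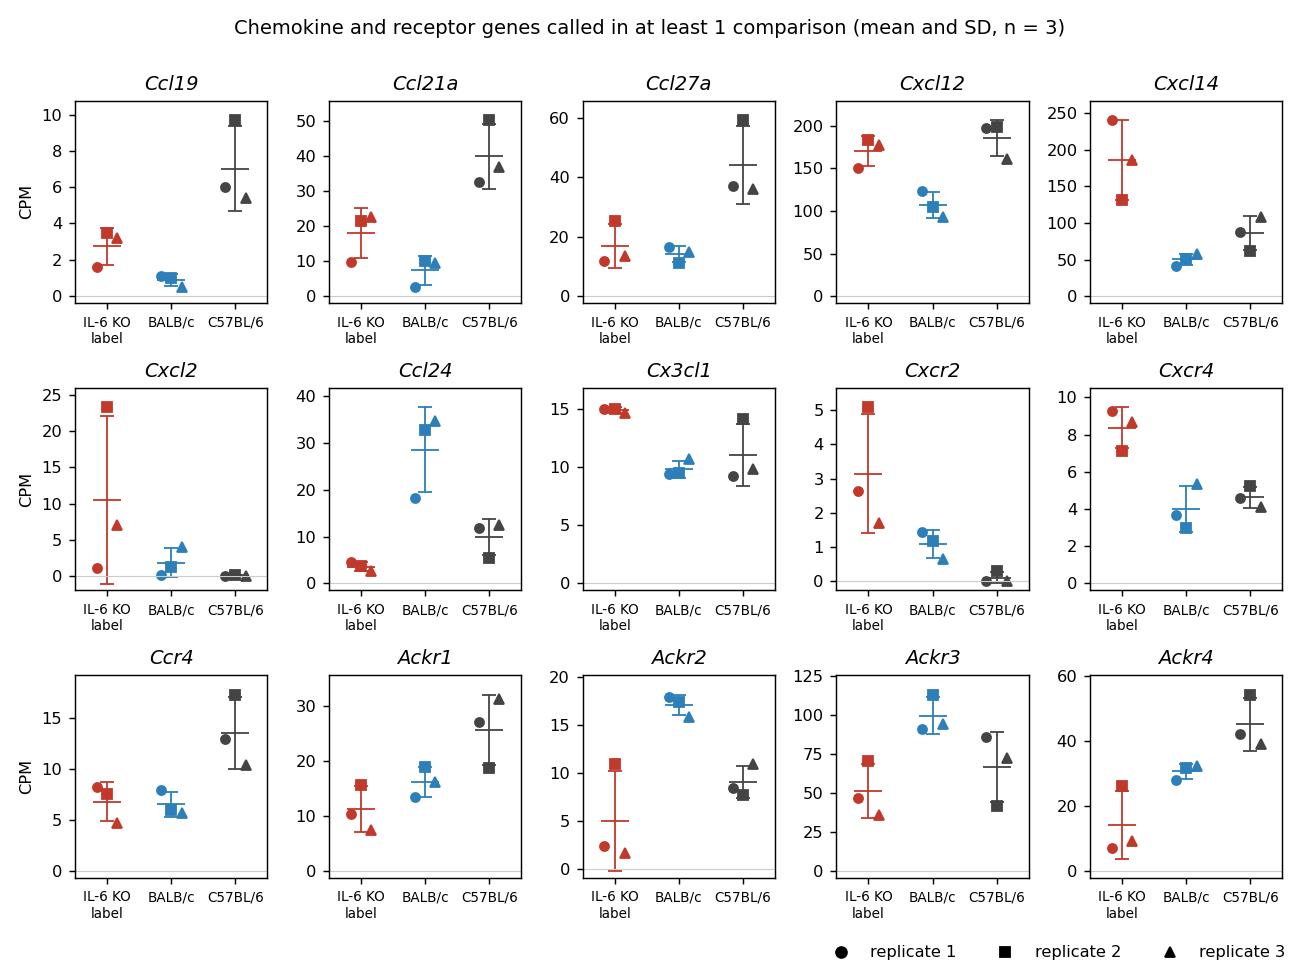
CPM of the 15 family genes called in at least 1 comparison, with 1 panel per gene and a point for each library (circles, squares and triangles for replicates 1, 2 and 3). Long dashes and bars give the mean and SD of 3 libraries, and the groups run from KO-labelled libraries on the left through BALB/c to C57BL/6. Ccl19 is highest in C57BL/6, Ccl24 in BALB/c and Cxcl14 in KO-labelled libraries.

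Among epithelial and skin-homing members, Cxcl14 was the most abundant and was higher in KO-labelled libraries than in both wild-type strains. Cxcl14 (chr13:56288647-56296551, reverse strand) had 241, 132 and 187 CPM in KO-labelled libraries, 41.7, 50.7 and 57.9 CPM in BALB/c libraries, against 87.3, 61.9 and 108 CPM in C57BL/6 libraries. KO-labelled libraries lay above all others, and the BALB/c libraries lay below all others. KO-labelled libraries exceeded C57BL/6 (log2 fold change 1.12 ± 0.26 SE, adjusted p = 0.00945) and BALB/c (log2 fold change 1.89 ± 0.27 SE, adjusted p = 0.00095), and both calls held in all 17 alternative settings. BALB/c against C57BL/6 did not pass (log2 fold change -0.78 ± 0.26 SE, adjusted p = 0.147). KO-labelled replicate 2, which had the lowest Cxcl14 of its group, also had the lowest hair follicle marker sum of its group. C57BL/6 replicate 3 had the lowest marker sum of its group (9.10 CPM) and the highest Cxcl14. C57BL/6 replicate 1 had the highest marker sum of its group (625 CPM) and the middle Cxcl14 (87.3 CPM). BALB/c replicate 1 had the highest marker sum of its group (21.7 CPM) and the lowest Cxcl14. BALB/c replicate 2 had the lowest marker sum of its group (7.98 CPM) and the middle Cxcl14 (50.7 CPM). The part of hair follicles in the Cxcl14 result was not tested. The promoter of Cxcl14 is shown because this gene had the firmest difference among the epithelial ligands. It is the 250 bases before the start of the gene in the RefSeq promoter table (GRCm38.p6, chr13:56296552-56296801, reverse strand), with capitals for a GAS-like match (TTCNNNGAA) and an ISRE-like match (GAAANNGAAA).
Cxcl14 promoter: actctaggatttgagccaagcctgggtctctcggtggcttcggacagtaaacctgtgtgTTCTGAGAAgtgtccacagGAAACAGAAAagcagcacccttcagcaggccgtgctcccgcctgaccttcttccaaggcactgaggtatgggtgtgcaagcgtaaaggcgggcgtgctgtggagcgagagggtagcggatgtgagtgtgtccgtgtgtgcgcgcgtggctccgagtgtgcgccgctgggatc
Both motifs were searched on both strands of the same window in all promoters of the table, where 7.02% hold the GAS-like and 2.98% the ISRE-like letters. Of the 46 family genes matched in the table, 4 hold the GAS-like and 3 the ISRE-like motif. A match describes letters and not a bound site.

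Ccl27a, a keratinocyte ligand that brings T cells with the receptor Ccr10 into skin, was lower in KO-labelled libraries and in BALB/c than in C57BL/6. Ccl27a (chr4:41769467-41774247, reverse strand) had 11.9, 25.5 and 13.4 CPM in KO-labelled libraries, 16.6, 11.1 and 14.9 CPM in BALB/c libraries, against 37.0, 59.4 and 36.2 CPM in C57BL/6 libraries. Neither of these groups overlapped C57BL/6, and KO-labelled libraries overlapped BALB/c. KO-labelled libraries were lower than C57BL/6 (log2 fold change -1.38 ± 0.32 SE, adjusted p = 0.00893) in all 17 alternative settings. BALB/c was lower than C57BL/6 (log2 fold change -1.64 ± 0.31 SE, adjusted p = 0.0252), a call lost when any 1 of the BALB/c or C57BL/6 libraries was left out (adjusted p = 0.0539 to 0.111). With its copies, the Ccl27a set summed to 29.0 ± 13.3 CPM in KO-labelled libraries, 28.0 ± 5.01 CPM in BALB/c libraries and 85.2 ± 24.9 CPM in C57BL/6 libraries (SD, n = 3 each), with no overlap of either with C57BL/6. Ccl27b had 54 reads, all in BALB/c replicate 1, of which 1 was unique. Ccr10, the receptor, had 2, 8 and 2 reads in KO-labelled libraries, 14, 10 and 6 in BALB/c libraries and 2, 1 and 5 in C57BL/6 libraries, and none of them was unique, and the gene lies within Cntnap1 on the opposite strand.

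Ccr4, another receptor of skin-homing T cells, was lower in KO-labelled libraries than in C57BL/6. It had 8.20, 7.53 and 4.67 CPM in KO-labelled libraries, 7.96, 5.99 and 5.68 CPM in BALB/c libraries, against 12.9, 17.3 and 10.4 CPM in C57BL/6 libraries. Both KO-labelled libraries and the BALB/c libraries lay below C57BL/6 with no overlap. The difference of KO-labelled libraries passed (log2 fold change -1.0 ± 0.29 SE, adjusted p = 0.0237), and that of BALB/c did not (log2 fold change -1.05 ± 0.28 SE, adjusted p = 0.082). The call was lost without KO-labelled replicate 3 (adjusted p = 0.0894) or C57BL/6 replicate 2 (0.0778). T cell markers, 12 genes all detected, summed to 26.5 to 59.5 CPM in KO-labelled libraries, 38.4 to 51.7 CPM in BALB/c libraries and 52.9 to 62.3 CPM in C57BL/6 libraries. Of the 9 that could be tested, only Cd3e was called lower in KO-labelled libraries than in C57BL/6, where 16% of all tested genes were. The median log2 fold change of these 9 was -0.59 there, where that of all tested genes was 0.01. In BALB/c against C57BL/6 their median was -0.51 without a call, where that of all tested genes was -0.01. The part of T cells in the Ccr4 result was not tested.

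The ligands of Ccr4 were low. Ccl22 had 1.85, 5.90 and 1.91 CPM in KO-labelled libraries, 0.796, 1.66 and 2.27 CPM in BALB/c libraries, against 1.54, 1.94 and 3.16 CPM in C57BL/6 libraries, and no comparison passed (adjusted p = 0.442, 0.705 and 0.175). Ccl17 had 2, 3 and 1 exon reads in KO-labelled libraries, 0, 0 and 0 in BALB/c libraries and 2, 1 and 3 in C57BL/6 libraries. With the BALB/c group set at 3 reads, Ccl17 was 2.75-fold higher in KO-labelled libraries than in BALB/c. On the same footing it was 1.99-fold lower in BALB/c than in C57BL/6. Both ratios leave out the counting error of the reads in the group compared. Without the filter on low counts the test called the difference of KO-labelled from BALB/c libraries (adjusted p = 0.0446, with 24% of all genes called). It did not call that of BALB/c from C57BL/6 (adjusted p = 0.206, with 2.16% of all genes called). These values rest on 6 reads in each group that had any.

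Cx3cl1, the membrane-bound ligand fractalkine, had 15.1, 15.1 and 14.6 CPM in KO-labelled libraries, 9.39, 9.48 and 10.7 CPM in BALB/c libraries, against 9.22, 14.2 and 9.84 CPM in C57BL/6 libraries. KO-labelled libraries were closely grouped and lay above all others. The difference from BALB/c passed (log2 fold change 0.60 ± 0.20 SE, adjusted p = 0.042) and that from C57BL/6 did not (log2 fold change 0.43 ± 0.20 SE, adjusted p = 0.124). The call was lost in 10 of 17 alternative settings, including the omission of any 1 library other than C57BL/6 replicate 2 (adjusted p = 0.0529 to 0.129). Its receptor Cx3cr1, found on monocytes and macrophages, had 1.06, 5.29 and 1.27 CPM in KO-labelled libraries, 2.07, 2.66 and 2.76 CPM in BALB/c libraries, against 2.15, 1.19 and 0.928 CPM in C57BL/6 libraries, and no comparison passed (adjusted p = 0.307, 0.51 and 0.942). Cxcl16, a ligand of Cxcr6 on T cells, had 7.40, 32.0 and 15.9 CPM in KO-labelled libraries, 29.9, 31.1 and 34.2 CPM in BALB/c libraries, against 27.2, 41.0 and 22.5 CPM in C57BL/6 libraries. KO-labelled replicates 1 and 3 lay below every wild-type library, and KO-labelled replicate 2 lay among them. Without that replicate Cxcl16 was called lower in KO-labelled libraries than in C57BL/6 (adjusted p = 0.0114) and than in BALB/c (0.00886).

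Of 7 neutrophil-attracting CXC ligands and receptors, Cxcl2 and Cxcr2 alone had enough reads to be tested, and both were higher in KO-labelled libraries than in C57BL/6, where they had almost no reads. Cxcl15 and the receptor Cxcr1 had no read in any library. Cxcl2, a ligand induced by inflammation that signals through Cxcr2, had 4, 115 and 33 exon reads in KO-labelled libraries, 1, 7 and 25 in BALB/c libraries and 0, 1 and 0 in C57BL/6 libraries. In CPM (chr5:90903871-90905938, forward strand) these were 1.06, 23.4 and 7.01 CPM in KO-labelled libraries, 0.159, 1.16 and 4.05 CPM in BALB/c libraries, against 0, 0.149 and 0 CPM in C57BL/6 libraries. KO-labelled libraries and C57BL/6 did not overlap, but values within the labelled group spanned 1.06 to 23.4 CPM. The ratio of summed reads, scaled by library size, was 211 in KO-labelled libraries over C57BL/6, with a 95% counting interval of 37.3 to 8383 that covers counting error only. The test called Cxcl2 higher in KO-labelled libraries than in C57BL/6 (log2 fold change 7.14 ± 1.62 SE, adjusted p = 0.00869), with a log2 fold change of 5.79 (adjusted p = 0.0152) when KO-labelled replicate 2 was left out and 8.86 (0.0358) when C57BL/6 replicate 2 was left out. It called neither KO-labelled libraries against BALB/c (2.56 ± 1.01, adjusted p = 0.0739) nor BALB/c against C57BL/6 (4.58 ± 1.92, adjusted p = 0.232).

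Cxcr2 (chr1:74153989-74161246, forward strand), the neutrophil receptor for these ligands, had 10, 25 and 8 exon reads in KO-labelled libraries, 9, 7 and 4 in BALB/c libraries and 0, 2 and 0 in C57BL/6 libraries. In CPM each group lay apart from the next, with C57BL/6 lowest. The ratio in KO-labelled libraries over C57BL/6 was 29.8 (95% counting interval 7.77 to 254). The difference from C57BL/6 passed (log2 fold change 4.63 ± 0.84 SE, adjusted p = 0.00309), and the log2 fold change was 7.12 without C57BL/6 replicate 2 (adjusted p = 0.00574). The difference from BALB/c (1.53 ± 0.59, adjusted p = 0.0681) and that of BALB/c from C57BL/6 (3.10 ± 0.93, adjusted p = 0.117) did not pass. Cxcr2 passed the filter on low counts through KO-labelled libraries alone, where it is high, and Cxcl2 through KO-labelled replicates 2 and 3 and BALB/c replicate 3. With the filter and the fit on only KO-labelled and C57BL/6 libraries, neither gene had enough reads to be tested.

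The other ligands of Cxcr2 were below the filter. Cxcl1 had 2, 10 and 2 exon reads in KO-labelled libraries, 3, 5 and 5 in BALB/c libraries and 2, 2 and 1 in C57BL/6 libraries. Cxcl3 had 0, 8 and 2 exon reads in KO-labelled libraries, 1, 0 and 1 in BALB/c libraries and 0, 0 and 0 in C57BL/6 libraries. With C57BL/6 set at 3 reads over the group, Cxcl3 was 4.62-fold higher in KO-labelled libraries. This ratio leaves out the counting error of the KO-labelled reads. KO-labelled replicate 1 overlapped C57BL/6, and the test without the filter did not call the difference (adjusted p = 0.059). Cxcl5 had 0, 1 and 2 reads in KO-labelled libraries, 0, 2 and 1 in BALB/c libraries and 0, 0 and 0 in C57BL/6 libraries. Neutrophil markers, 8 genes, summed to 27.5 to 76.4 CPM in KO-labelled libraries, 6.69 to 13.3 CPM in BALB/c libraries and 5.01 to 8.61 CPM in C57BL/6 libraries. Of the 3 that could be tested, S100a8 and S100a9, which keratinocytes can also express, were called higher in KO-labelled libraries against either strain, where 19.2% (C57BL/6) and 19.9% (BALB/c) of all tested genes were. The third, the surface receptor Csf3r, had 101 reads in KO-labelled libraries, 84 in BALB/c libraries and 62 in C57BL/6 libraries and was not called. Retnlg had 12, 1 and 6 reads and the granule gene Camp 9, 2 and 6 in the same order of groups. Ly6g had no read in any library, and Ngp had 0 reads in KO-labelled libraries, 0 in BALB/c libraries and 2 in C57BL/6 libraries. The part of neutrophils in the Cxcl2 and Cxcr2 results was not tested.

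The promoter of Cxcl2 is printed because its gene had the largest log2 fold change of the tested members. It covers the 120 bases directly before the start of the gene in the RefSeq promoter table (GRCm38.p6, chr5:90903779-90903898, forward strand), with capitals for matches to a κB-like motif (GGGNNNNNCC, searched on both strands).
Cxcl2 promoter: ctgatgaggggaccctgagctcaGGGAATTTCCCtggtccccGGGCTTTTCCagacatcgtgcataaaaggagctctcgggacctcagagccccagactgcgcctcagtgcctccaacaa
Of all 32851 promoters in the table, 45.8% hold this motif in the 250 bases before the start, and 28 of 53 family promoters do. TATAAA was found in 12.4% of all promoters and in 15 of the 53.

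Monocyte-attracting CC ligands included the most abundant members, and none of their tested genes other than the eosinophil ligand Ccl24 was called in any comparison. Ccl8 (chr11:82115185-82116799, forward strand) had 41.3, 168 and 76.2 CPM in KO-labelled libraries, 27.5, 98.4 and 110.3 CPM in BALB/c libraries, against 78.2, 24.3 and 52.5 CPM in C57BL/6 libraries. The highest and lowest libraries of each group overlapped those of the others, and no comparison passed (adjusted p = 0.296, 0.642 and 0.752). Ccr8, a receptor of Ccl8 in mice, had 0, 0 and 0 reads in KO-labelled libraries, 1, 0 and 0 in BALB/c libraries and 0, 0 and 1 in C57BL/6 libraries. Ccl6 had 56.9, 163 and 64.5 CPM in KO-labelled libraries, 73.7, 143 and 149 CPM in BALB/c libraries, against 79.8, 41.2 and 76.5 CPM in C57BL/6 libraries, and its groups overlapped. Ccl9 had 29.1, 101 and 34.2 CPM in KO-labelled libraries, 35.2, 68.0 and 64.1 CPM in BALB/c libraries, against 51.2, 26.5 and 49.95 CPM in C57BL/6 libraries. Neither was called in any comparison. Both are ligands of Ccr1, which had 6.61, 12.0 and 1.70 CPM in KO-labelled libraries, 3.66, 4.99 and 3.89 CPM in BALB/c libraries, against 5.53, 0.746 and 2.79 CPM in C57BL/6 libraries and was not called either (adjusted p = 0.228, 0.77 and 0.453).

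Ccl2, the main ligand of the monocyte receptor Ccr2, had 0.793, 9.77 and 3.61 CPM in KO-labelled libraries, 1.43, 1.66 and 1.78 CPM in BALB/c libraries, against 1.38, 1.64 and 2.97 CPM in C57BL/6 libraries. KO-labelled replicate 2 was highest and KO-labelled replicate 1 was lowest of all libraries. No comparison of Ccl2 passed (adjusted p = 0.166, 0.876 and 0.102). Without KO-labelled replicate 1, Ccl2 was called higher in KO-labelled libraries than in C57BL/6 (adjusted p = 0.0348) and than in BALB/c (0.0208). Ccl7, which also binds Ccr2, had 2.38, 13.8 and 5.94 CPM in KO-labelled libraries, 1.75, 3.66 and 3.57 CPM in BALB/c libraries, against 4.61, 2.54 and 6.13 CPM in C57BL/6 libraries without a call. Leaving out KO-labelled replicate 1 gave a call of Ccl7 as higher in KO-labelled libraries than in BALB/c (adjusted p = 0.038). Ccr2 had 20.9, 49.7 and 25.9 CPM in KO-labelled libraries, 21.7, 30.4 and 26.6 CPM in BALB/c libraries, against 30.3, 11.6 and 18.2 CPM in C57BL/6 libraries and was not called in any comparison.

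Ccl3 and Ccl4, inflammatory ligands of myeloid cells and T cells, did not pass the filter and were concentrated in KO-labelled replicates 2 and 3. Ccl3 had 1, 40 and 12 exon reads in KO-labelled libraries, 0, 1 and 3 in BALB/c libraries and 1, 0 and 0 in C57BL/6 libraries. Ccl4 had 1, 25 and 9 reads in KO-labelled libraries, 0, 3 and 6 in BALB/c libraries and 0, 3 and 0 in C57BL/6 libraries. KO-labelled replicate 1 had 1 read of each, so that the group overlapped the wild-type libraries. Without the filter, where 22.4% of 21734 genes were called in this comparison and 2.16% in BALB/c against C57BL/6, Ccl3 was called higher in KO-labelled libraries than in C57BL/6 (log2 fold change 5.61 ± 1.30 SE, adjusted p = 0.00835) and so was Ccl4 (3.76 ± 1.21, adjusted p = 0.0417). Ccl3 was called higher also against BALB/c (3.94 ± 1.08, adjusted p = 0.0192, with 24% of all genes called). The ratio of KO-labelled libraries over C57BL/6 was 73.5 for Ccl3 (95% counting interval 12.6 to 2958) and 16.2 for Ccl4 (5.10 to 82.3). Ccl5 had 1, 8 and 5 reads in KO-labelled libraries, 6, 44 and 10 in BALB/c libraries and 7, 6 and 6 in C57BL/6 libraries, with BALB/c replicate 2 the highest library. Ccl12 had 14 reads in KO-labelled libraries, 11 in BALB/c libraries and 19 in C57BL/6 libraries.

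**Figure D4:**
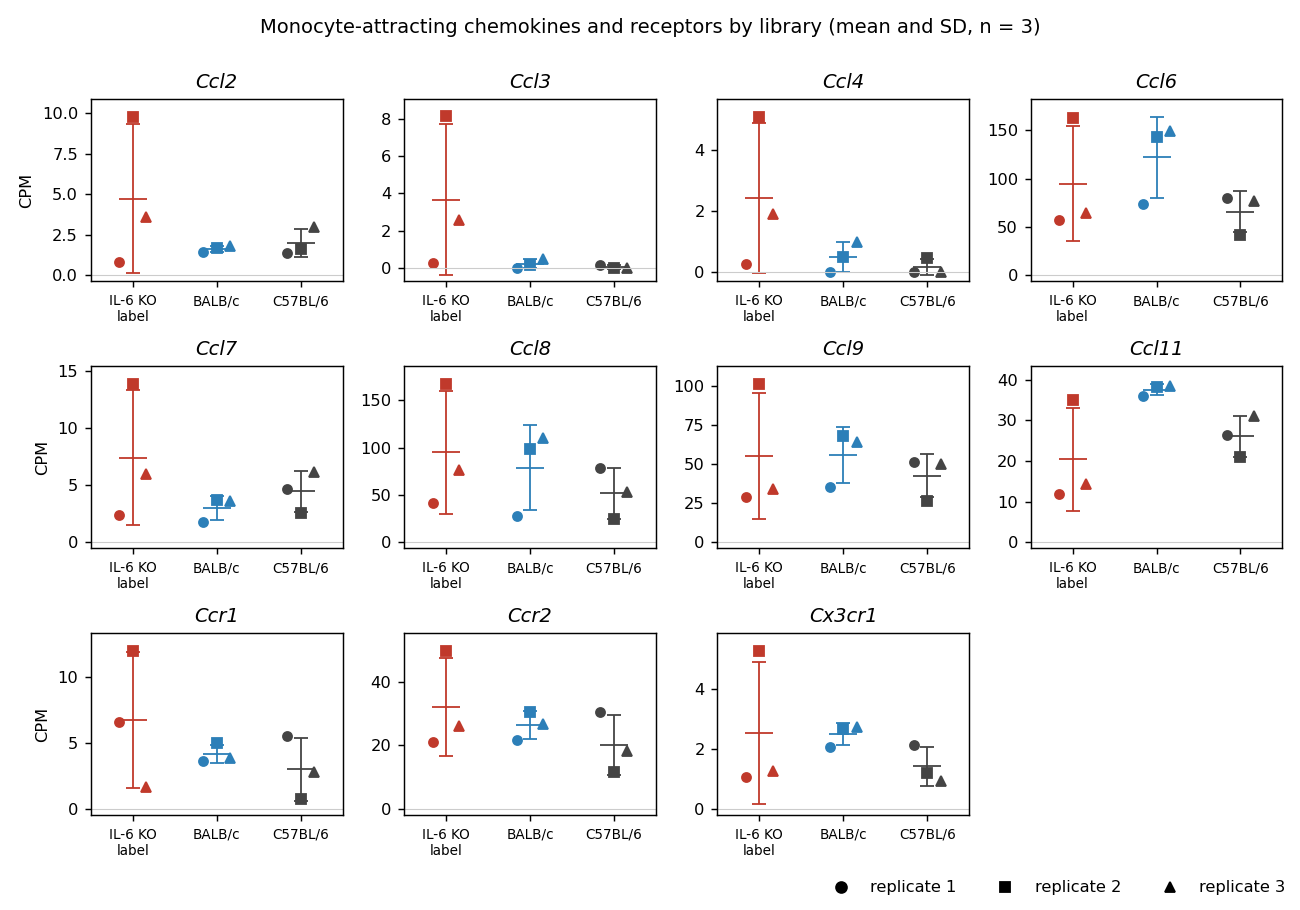
CPM of monocyte-attracting ligands and receptors in each library, with the mean and SD of 3 libraries per group and the same order of groups and symbols as in the plot of called genes. KO-labelled replicate 2 (red square) is the highest library of its group in every panel.

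KO-labelled replicate 2 held the highest value of its group for 27 of the 34 tested members, against 5 for replicate 1 and 2 for replicate 3. Its family share of exon reads was 0.135%, against 0.0709% and 0.0832% in the other libraries of that label. It also held the largest macrophage marker sum. Macrophage markers, 10 genes all detected, summed to 494 to 1215 CPM in KO-labelled libraries, 569 to 913 CPM in BALB/c libraries and 483 to 1089 CPM in C57BL/6 libraries. None of them was called in KO-labelled libraries against C57BL/6 (35.2% of all tested genes). Mertk alone was called higher in KO-labelled libraries than in BALB/c (19.9% of all tested genes). It was also the only one called lower in BALB/c than in C57BL/6 (1.78%). Without KO-labelled replicate 2, 37 family genes could be tested. Of these, 13 were called in KO-labelled libraries against C57BL/6, the 10 above and Ackr2, Ccl11 and Cxcl16. In the comparison with BALB/c 12 were called without that replicate, with Cx3cl1 lost and Ackr1, Ackr4, Ccl11, Ccl6 and Cxcl16 added. The share of all genes called in this fit was not worked out, so these counts are not a result about the family. The part of KO-labelled replicate 2 in the remaining results was not tested further.

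Ccl24 (chr5:135569937-135573049, reverse strand), or eotaxin-2, a ligand that attracts eosinophils, was highest in BALB/c and lowest in KO-labelled libraries. It had 4.50, 3.66 and 2.55 CPM in KO-labelled libraries, 18.1, 32.8 and 34.7 CPM in BALB/c libraries, against 11.8, 5.37 and 12.4 CPM in C57BL/6 libraries. The 3 groups did not overlap. KO-labelled libraries were lower than BALB/c (log2 fold change -3.01 ± 0.40 SE, adjusted p = 0.0008), a call that held in all 17 alternative settings, and lower than C57BL/6 (log2 fold change -1.47 ± 0.41 SE, adjusted p = 0.0217). The call against C57BL/6 was lost without KO-labelled replicate 3 (adjusted p = 0.087), C57BL/6 replicate 1 (0.0651) or C57BL/6 replicate 3 (0.0705). BALB/c was higher than C57BL/6 (log2 fold change 1.53 ± 0.35 SE, adjusted p = 0.0486), a call close to the threshold that was lost in 10 of 17 alternative settings. Among these were the omission of KO-labelled replicate 1 or 3, BALB/c replicate 2 or 3, or any 1 C57BL/6 library (adjusted p = 0.0615 to 0.166). Ccl11, or eotaxin, had 11.9, 35.0 and 14.4 CPM in KO-labelled libraries, 36.0, 38.2 and 38.6 CPM in BALB/c libraries, against 26.4, 20.9 and 31.0 CPM in C57BL/6 libraries, and no comparison passed (adjusted p = 0.48, 0.43 and 0.076). Without KO-labelled replicate 2 it was called lower in KO-labelled libraries than in both strains. Ccr3, the eosinophil receptor for both ligands, had 1, 4 and 4 exon reads in KO-labelled libraries, 1, 0 and 0 in BALB/c libraries and 1, 0 and 3 in C57BL/6 libraries.

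The interferon-inducible ligands of Cxcr3 gave no call. Cxcl9 had 0.793, 1.83 and 1.70 CPM in KO-labelled libraries, 2.07, 1.66 and 1.62 CPM in BALB/c libraries, against 1.08, 0.597 and 3.34 CPM in C57BL/6 libraries, and Cxcl10 had 1.32, 3.05 and 2.12 CPM in KO-labelled libraries, 1.75, 1.33 and 1.78 CPM in BALB/c libraries, against 1.54, 1.19 and 2.41 CPM in C57BL/6 libraries. Their groups overlapped in every comparison and the smallest adjusted p was 0.434. Cxcl11 had 15 reads and Cxcr3 65 reads in all 9 libraries, and neither was tested. The remaining tested members were Xcl1, Ccl25, Ccr9 and Cxcr6, and none of them was called. Xcl1, a ligand of Xcr1 on cross-presenting dendritic cells, had 0.529, 2.24 and 1.06 CPM in KO-labelled libraries, 0, 0.499 and 0.487 CPM in BALB/c libraries, against 1.23, 1.94 and 2.04 CPM in C57BL/6 libraries. BALB/c lay below the other groups for Xcl1 with no overlap in CPM (adjusted p = 0.128 against C57BL/6). The gap to KO-labelled libraries was narrow. KO-labelled replicate 1 had 2 exon reads, of which 0 were unique, while BALB/c replicates 2 and 3 had 3 each, all unique. With unique reads the KO-labelled and BALB/c libraries overlapped.

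Of the 4 atypical receptors, Ackr1 and Ackr4 were called lower in KO-labelled libraries than in C57BL/6, where 16% of all tested genes were called lower. Ackr2 and Ackr3 were called lower in KO-labelled libraries than in BALB/c, where 17.4% were. Ackr1 (chr1:173331886-173333750, reverse strand), which moves inflammatory chemokines across venules, had 10.3, 15.7 and 7.43 CPM in KO-labelled libraries, 13.4, 18.8 and 16.1 CPM in BALB/c libraries, against 27.1, 18.6 and 31.2 CPM in C57BL/6 libraries. KO-labelled libraries lay below C57BL/6 with no overlap and were called lower (log2 fold change -1.19 ± 0.29 SE, adjusted p = 0.0123) in all 17 alternative settings. Against BALB/c the difference did not pass (-0.52 ± 0.30, adjusted p = 0.189). Blood endothelial markers, 7 genes all detected, summed to 180.0 to 221 CPM in KO-labelled libraries, 169 to 311 CPM in BALB/c libraries and 328 to 551 CPM in C57BL/6 libraries. Of these, 6 were called lower in KO-labelled libraries than in C57BL/6 (16% of all tested genes), and the part of vessels in the Ackr1 result was not tested.

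Ackr4 (chr9:104084157-104126933, reverse strand), a scavenger of Ccl19 and Ccl21, had 6.88, 26.1 and 9.13 CPM in KO-labelled libraries, 27.9, 31.8 and 32.3 CPM in BALB/c libraries, against 42.1, 54.3 and 39.0 CPM in C57BL/6 libraries. KO-labelled libraries were lowest, BALB/c next and C57BL/6 highest, without overlap. The difference of KO-labelled libraries from C57BL/6 passed (log2 fold change -1.67 ± 0.40 SE, adjusted p = 0.0111) in all 17 alternative settings, with a log2 fold change of -2.48 without KO-labelled replicate 2. Only 4.60% of Ackr4 reads were unique, and the gene shares 479 exon bases with Acad11 on the opposite strand. With unique reads alone the log2 fold change was -2.06 (adjusted p = 0.0252). That value rests on only 0, 4 and 3 unique reads in KO-labelled libraries against 17, 15 and 9 in C57BL/6 libraries.

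Ackr2 (chr9:121898355-121911074, forward strand), a scavenger of inflammatory CC ligands on lymphatic vessels and keratinocytes, had 2.38, 10.99 and 1.70 CPM in KO-labelled libraries, 18.0, 17.5 and 15.9 CPM in BALB/c libraries, against 8.46, 7.75 and 10.96 CPM in C57BL/6 libraries. KO-labelled replicates 1 and 3 were far below the other libraries, while KO-labelled replicate 2 reached the C57BL/6 level. KO-labelled libraries were lower than BALB/c (log2 fold change -1.73 ± 0.53 SE, adjusted p = 0.0298). That call was lost without KO-labelled replicate 1 (adjusted p = 0.0915) or 3 (0.0824) or any 1 BALB/c library (0.0597 to 0.0681). It was lost also with the fit on only the groups compared (0.0757). The log2 fold change was -3.08 without KO-labelled replicate 2. Ackr3 (chr1:90203980-90216751, forward strand), which removes Cxcl12, had 46.8, 70.4 and 36.1 CPM in KO-labelled libraries, 91.2, 113 and 94.2 CPM in BALB/c libraries, against 85.8, 41.5 and 72.4 CPM in C57BL/6 libraries. KO-labelled libraries lay below BALB/c with no overlap, and the difference passed (log2 fold change -0.96 ± 0.29 SE, adjusted p = 0.0301). It was lost without KO-labelled replicate 1 (0.0933) or 3 (0.11) or BALB/c replicate 2 (0.0862) or 3 (0.0589), and with the replicate number as a block (0.0528).

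Reads that the authors counted as unique to a gene made up all or nearly all reads of most members, but under 50% for 10 of the 58 with reads. Besides the copies on chromosome 4, these lie within or beside a gene on the opposite strand. Cxcr6 had 3.49% unique reads and lies within Fyco1, and Cxcl10 had 28.6% and shares 133 exon bases with Art3. Ccl2 had 34.3% within Gm17268, and Ccl6 had 38.1% beside E230016K23Rik. The sources used here do not state that counting used strand, so reads of such pairs cannot be told apart. With unique reads the calls were 9, 5 and 9 in KO-labelled libraries against C57BL/6, BALB/c against C57BL/6 and KO-labelled libraries against BALB/c, where 35.2%, 3.28% and 37.3% of all tested genes were called. Of the main calls only Ccl19 in KO-labelled libraries against C57BL/6 was lost with them.

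**Figure D5:**
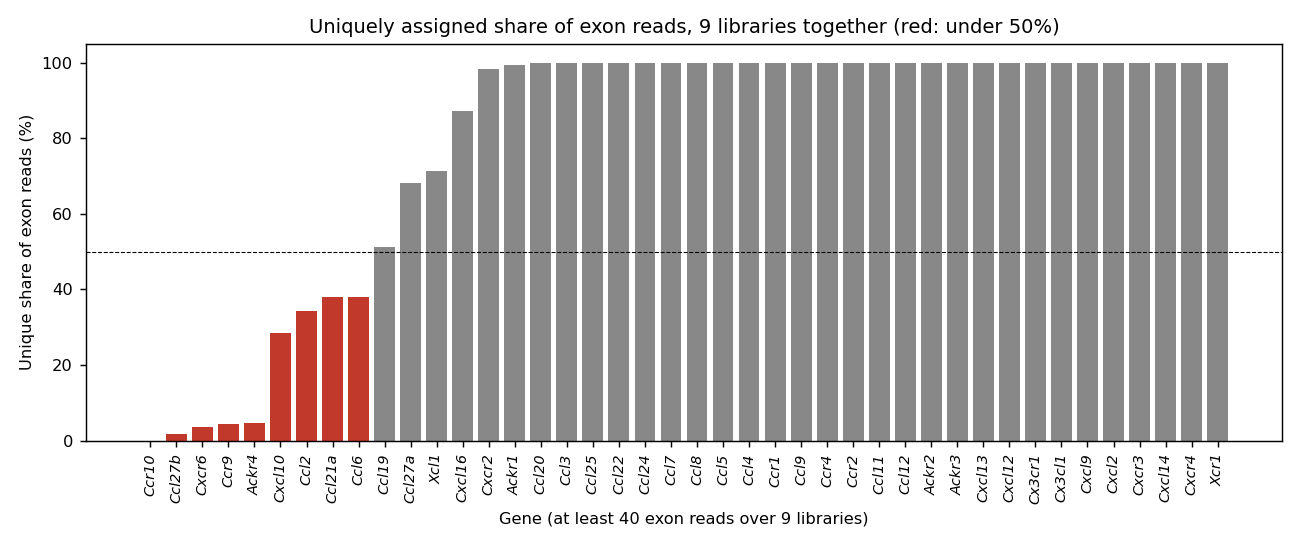
Share of exon reads counted as unique, in percent and over all 9 libraries together, for family genes with at least 40 exon reads. Red bars mark shares under 50% (dashed line), with Ccr10 at 0, and most genes reach nearly 100%.

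Genes that act with the family were described from 4 lists, with levels as mean ± SD of 3 libraries. Of 31 tested genes of receptor signalling and desensitisation, 3 were higher and 2 lower in KO-labelled libraries than in C57BL/6, 1 was lower in BALB/c than in C57BL/6, and KO-labelled libraries had 5 higher and 2 lower than BALB/c. Over all tested genes 35.2%, 3.41% and 37.3% were called in these comparisons. Arrb1, an arrestin that uncouples receptors, was lower in KO-labelled libraries than in C57BL/6, at 53.9 ± 13.6 against 121 ± 2.37 CPM (log2 fold change -1.17 ± 0.17 SE, adjusted p = 0.00118). It was lower also in BALB/c than in C57BL/6, at 58.8 ± 5.00 against 121 ± 2.37 CPM (log2 fold change -1.04 ± 0.17 SE, adjusted p = 0.011). Ptk2b, a kinase downstream of chemokine receptors, was higher in KO-labelled libraries than in C57BL/6, at 49.5 ± 3.62 against 32.9 ± 2.85 CPM (log2 fold change 0.59 ± 0.15 SE, adjusted p = 0.0136). Grk3, a kinase that desensitises receptors, was lower in KO-labelled libraries than in BALB/c, at 6.70 ± 4.38 against 22.5 ± 10.8 CPM (log2 fold change -1.72 ± 0.44 SE, adjusted p = 0.0146), and Rgs16, a brake on G protein signals, was higher, at 5.16 ± 2.15 against 1.25 ± 0.646 CPM (log2 fold change 2.03 ± 0.43 SE, adjusted p = 0.0064).

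Of 11 tested genes of chemokine cleavage and presentation, 1 was higher and 1 lower in KO-labelled libraries than in C57BL/6, and 2 were higher in them than in BALB/c, where 35.2% and 37.3% of all tested genes were called. Sdc1, a heparan sulfate proteoglycan of epithelia that binds chemokines, was higher in KO-labelled libraries than in C57BL/6, at 606 ± 81.6 against 299 ± 45.5 CPM (log2 fold change 1.02 ± 0.17 SE, adjusted p = 0.00191). Of 12 tested chemoattractants and receptors outside the name rule, 3 were lower in KO-labelled libraries than in C57BL/6 and 1 was lower in them than in BALB/c, where 16% and 17.4% of all tested genes were called lower. Rarres2, which encodes the chemoattractant chemerin, was lower in both, at 49.6 ± 26.3 against 123 ± 11.7 CPM (log2 fold change -1.31 ± 0.30 SE, adjusted p = 0.00871) in KO-labelled libraries and C57BL/6, and at 49.6 ± 26.3 against 192 ± 8.21 CPM (log2 fold change -1.95 ± 0.30 SE, adjusted p = 0.00148) in KO-labelled libraries and BALB/c. Of 17 tested inducers and transcription factors, 2 were higher and 3 lower in KO-labelled libraries than in C57BL/6, BALB/c had 1 higher than C57BL/6, and KO-labelled libraries had 1 higher and 1 lower than BALB/c, again beside 35.2%, 3.41% and 37.3% of all tested genes. Il1b, an inducer of Cxcl2, was higher in KO-labelled libraries than in C57BL/6, at 15.2 ± 15.6 against 0.351 ± 0.375 CPM (log2 fold change 5.29 ± 1.17 SE, adjusted p = 0.00755), with an SD as large as its mean. Il6st, the shared signalling receptor of the IL-6 family, was lower in KO-labelled libraries than in C57BL/6, at 195 ± 51.1 against 348 ± 26.0 CPM (log2 fold change -0.83 ± 0.19 SE, adjusted p = 0.0091). Nfkbiz, a cofactor of NF-κB, was more abundant in BALB/c, compared with C57BL/6, at 43.8 ± 2.79 against 22.6 ± 0.146 CPM (log2 fold change 0.95 ± 0.21 SE, adjusted p = 0.0434). Nfkbia, the NF-κB inhibitor, was lower in KO-labelled libraries than in BALB/c, at 55.8 ± 19.2 against 89.3 ± 7.75 CPM (log2 fold change -0.68 ± 0.21 SE, adjusted p = 0.0309).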

How the data were processed

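Total RNA of mouse skin was sequenced from TruSeq libraries, per the labels' protocols. The deposited tables give exon, intron and gene read counts per gene, and per the file headers the counts come as total reads and as unique reads. The file headers also give each gene's exon length, the other deposited value used. The build was GRCm38 per the submitters' processing notes, while no source used here names the aligner or the counter. The first C57BL/6 file stacks 3 tables, of which the first was used, since the later ones are identical to those of replicates 2 and 3.

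Total exon counts of all 9 libraries, 3843953 to 6882193 per library, were fitted with edgeR 4.0.16 (R 4.3.3, limma 3.58.1). Genes passing filterByExpr (minimum count 10, minimum total 15) were kept, which left 14415. Libraries were scaled by TMM, and 1 coefficient per group left 6 residual degrees of freedom. Quasi-likelihood tests were adjusted by the Benjamini-Hochberg method over all tested genes, with a threshold of 0.05. CPM uses TMM-scaled library sizes. DESeq2 1.42.0 and the other settings of the closing section were alternatives.

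Near-identical transcripts (at least 95% identity over 200 bases) were found with blastn 2.17.0 in GENCODE transcripts of GRCm38, and promoters came from RefSeq (GRCm38.p6). Of 63 members, 46 matched a RefSeq promoter, and all 63 were found in GENCODE by identifier. Figures were drawn with matplotlib 3.10.9. The values of 1 member, which is included in the counts, are not reported here. Values are given in every library for members called in any comparison, for the 5 most abundant per length in any group and for their known partners, by exon reads where these are few, and other members were named after their values were seen. Members, gene lists and the rule were chosen with earlier results of these data known. Replicate numbers did not pair the libraries, with correlations of same-numbered deviations from -0.212 to 0.0617. Reads without molecular identifiers are not independent molecules, so intervals and floors reflect counting error alone.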

Additional observations from a re-analysis of the deposited data

How the results depend on the processing

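The counts of called members, 10 in KO-labelled libraries against C57BL/6, 5 in BALB/c against C57BL/6 and 8 in KO-labelled libraries against BALB/c, stayed within 1.5 times under most settings. With RLE scaling they were 10, 5 and 8, with library size alone 9, 4 and 9, without the filter 11, 5 and 10, with DESeq2 11, 7 and 11, with a robust variance prior 10, 4 and 8, with only the groups compared 9, 5 and 6, and with unique exon reads 9, 5 and 9. With only the groups compared, Cxcl2 and Cxcr2 fell below the filter in KO-labelled libraries against C57BL/6, and Ccl19 did so in KO-labelled libraries against BALB/c. A required log2 fold change of 1 left 9, 4 and 5. Leaving out 1 library gave 6 to 13, 1 to 6 and 3 to 12 calls in the same order of comparisons. Shares over all genes were worked out only for the main fit, DESeq2, unique exon reads and the fit without the filter. The counts under the other settings therefore describe how calls moved, and not the family beside all genes. The comparison of BALB/c with C57BL/6 kept only Ccl19 without BALB/c replicate 2 or 3 or C57BL/6 replicate 1 or 2, and 2 calls without C57BL/6 replicate 3. KO-labelled libraries against BALB/c kept 3 calls without KO-labelled replicate 3 or BALB/c replicate 2, and against C57BL/6 they kept 6 without KO-labelled replicate 3. Fewer libraries leave fewer degrees of freedom, and other causes were not tested.

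With the replicate number as a block the calls were 10, 3 and 9, where the block replaced Cxcr4 with Ccl21a in KO-labelled libraries against C57BL/6 and Ccl24 and Cxcl12 were lost in BALB/c against C57BL/6. In KO-labelled libraries against BALB/c it lost Ackr3 and Cx3cl1 and added Ackr4, Ccl21a and Cxcl2. The same-numbered libraries did not deviate together, so the numbers are no evidence of pairing. No called fold change of a named gene changed sign under any setting run. Over the named genes and settings, 1104 values kept their side of the threshold and direction, 79 lost a call, 29 gained one and 19 uncalled values changed sign. Libraries of this depth leave 24 detected members untested, and low receptors such as Ccr7 and Ccr10 could not be compared.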
